A study of Mus musculus with 24 samples.

Results

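The genes described here are 10 components of the circadian clock, out of 18193 genes measured on the array: Arntl (also called Bmal1), Npas2, Per1, Per2, Per3, Cry1, Nr1d1, Nr1d2, Dbp and Tef. They were chosen by name, and every probe set (a set of short DNA probes for 1 transcript) that the array's annotation assigns to only 1 of them was taken, which gave 23 probe sets. The animals were SV129 mice lacking the nuclear receptor PPARα (KO) and wild-type SV129 mice (WT), of both sexes, about 10 to 12 weeks old, killed at zeitgeber hour 14, the time counted from lights on. Liver and heart RNA was hybridised to 24 arrays in 8 groups of 3 pools: female KO (pools 10 to 12), female WT (pools 7 to 9), male KO (pools 4 to 6) and male WT (pools 1 to 3), each in both tissues. Each pool combined 4 animals, so 12 animals stand behind each sex and genotype and differences between single animals cannot be seen. The labels do not say which part of Ppara was deleted, whether littermates were used, when the animals last ate or whether a liver pool and a heart pool of the same number came from the same animals. All groups were killed at the same hour, so levels at that hour were compared and the timing or amplitude of a rhythm was not measured.

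The mammalian clock is a feedback loop of transcription. ARNTL pairs with CLOCK or its relative NPAS2 and binds E-boxes in the genes of the PER and CRY proteins, which later return to the nucleus and repress that pair, while the receptors REV-ERBα and REV-ERBβ (Nr1d1 and Nr1d2) repress Arntl in a second loop. DBP and TEF are transcription factors made under the control of the loop that pass its rhythm on to metabolic genes through D-boxes. In mouse liver, PPARα, a receptor for fatty acids, has been reported to act on Arntl and to be itself rhythmic, and feeding time is a strong signal for the liver clock.

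RefSeq promoter sequences, from 250 bases before to 50 bases after the annotated start site in the GRCm38.p6 build, were found for 9 of the 10 genes, with 12 promoters in all. Per1, Per3 and Cry1 are shown because they held more than 1 match to the clock elements searched, and Nr1d2 and Dbp because their deviations from the group mean were the most alike in liver and heart. Capitals mark matches on either strand to the E-box CACGTG, the related E-prime box CACGTT, the D-box TTATGNAA, the ROR and REV-ERB element TAGGTCA, the CREB core TGACG or a tandem AGGTCANAGGTCA, the kind of repeat that PPARα binds.
Per1 (chr11:69098699-69098998, + strand): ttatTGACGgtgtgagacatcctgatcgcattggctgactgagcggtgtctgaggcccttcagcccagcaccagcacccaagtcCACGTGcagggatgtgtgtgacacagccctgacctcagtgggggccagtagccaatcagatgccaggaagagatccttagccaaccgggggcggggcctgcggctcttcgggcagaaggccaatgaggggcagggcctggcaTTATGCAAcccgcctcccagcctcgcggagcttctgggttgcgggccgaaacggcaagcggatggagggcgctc
Per3 (chr4:151044616-151044915, - strand): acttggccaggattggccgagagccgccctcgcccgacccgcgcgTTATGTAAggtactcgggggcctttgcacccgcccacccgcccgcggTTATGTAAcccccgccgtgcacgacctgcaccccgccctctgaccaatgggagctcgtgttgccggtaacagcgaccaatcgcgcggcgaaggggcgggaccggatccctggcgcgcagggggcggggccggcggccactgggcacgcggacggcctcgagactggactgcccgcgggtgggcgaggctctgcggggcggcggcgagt
Cry1 (chr10:85185005-85185304, - strand): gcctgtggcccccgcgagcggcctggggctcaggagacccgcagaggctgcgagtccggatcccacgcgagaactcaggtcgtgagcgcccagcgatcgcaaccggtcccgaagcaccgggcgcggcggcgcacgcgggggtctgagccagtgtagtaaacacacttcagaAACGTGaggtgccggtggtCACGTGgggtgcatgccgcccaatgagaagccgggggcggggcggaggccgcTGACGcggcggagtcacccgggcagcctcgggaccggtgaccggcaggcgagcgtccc
Nr1d2 (chr14:18239057-18239356, - strand): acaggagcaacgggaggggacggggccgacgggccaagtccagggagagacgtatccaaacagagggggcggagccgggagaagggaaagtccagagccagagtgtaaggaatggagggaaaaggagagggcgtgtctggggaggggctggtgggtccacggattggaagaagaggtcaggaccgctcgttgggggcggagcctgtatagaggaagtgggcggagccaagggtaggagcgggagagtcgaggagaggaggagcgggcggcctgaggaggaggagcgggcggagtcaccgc
Dbp (chr7:45704997-45705296, + strand): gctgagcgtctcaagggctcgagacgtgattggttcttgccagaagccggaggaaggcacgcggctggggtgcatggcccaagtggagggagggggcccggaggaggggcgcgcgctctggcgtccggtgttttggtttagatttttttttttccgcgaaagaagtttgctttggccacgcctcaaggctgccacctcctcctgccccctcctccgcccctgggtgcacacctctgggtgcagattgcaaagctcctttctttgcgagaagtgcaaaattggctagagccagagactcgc

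Positions are counted in bases from the start site, negative ones before it. In the Per1 promoter the E-box began at -166, the D-box at -24 and the CREB core at -246. Per3 held D-boxes that began at -205 and -158. In Cry1 an E-box began at -60, an E-prime box at -79 and a CREB core at -8. Single matches were found in Nr1d1 (an E-prime box at -28), in both Tef promoters (an E-box at -127 and at -138) and in 1 Arntl promoter (TAGGTCA at 31). A second Per1 promoter held a CREB core at -132. Of 32851 promoters of this length in the table, 7.15% held the E-box, 4.68% the E-prime box, 3.38% the D-box, 2.61% TAGGTCA, 20.8% the CREB core and 0.0396% the tandem element, so a CREB core alone is a common find. The motifs do not overlap each other in the matches shown, and a match is only a run of letters in this window.

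Values are log2 intensities, normalised by the submitters. A gene's value is that of its probe set with the highest mean unless another is named, and array medians ran from 2.43 to 2.49 in the liver and from 3.01 to 3.07 in the heart. The tissues have different array medians and were fitted separately, and levels are not set against each other between tissues or between probe sets. Ppara, the targeted gene, fell in KO in every comparison. It fell by 1.05 (female liver), 1.12 (male liver), 1.53 (female heart) and 1.25 (male heart) on the log2 scale (limma, highest adjusted p = 0.00131). KO livers had Ppara levels of 7.27 to 7.60, against 8.24 to 8.69 in WT livers, and KO hearts 5.28 to 6.13, against 6.73 to 7.27 in WT hearts. The signal left in KO is not near the array median, and whether the probes lie in the deleted part is not given in the labels. The medians of the hepatocyte markers stood between 12.61 and 12.82 in liver pools, and those of the ventricular heart muscle markers between 13.04 and 13.25 in heart pools. In 2 heart pools the sex markers did not match the label alone. Pool 4, labelled male KO, had an Xist level of 6.62 and an Eif2s3y level of 4.49, and also the highest skeletal muscle marker median, 4.27, against at most 3.48 in the other heart pools. Pool 10, labelled female KO, had an Eif2s3y level of 3.34 and an Xist level of 7.32, and also the highest hepatocyte marker median of the hearts, 4.24, against at most 3.79 in the others. The KO minus WT differences in heart are therefore also given without these pools. Atrial markers differed too: their median was 10.69, 10.46 and 10.27 in female KO hearts, against 11.06, 11.04 and 11.03 in female WT hearts, without overlap, and its part in the female heart results was not tested. Immune markers had medians of 4.08, 4.06 and 4.72 in male KO hearts, against 3.75, 3.78 and 3.82 in male WT hearts, also without overlap. The value of pool 6, 4.72, compares with at most 4.09 in the other heart pools. The part of immune markers in the male heart results was not tested. Liver pool 12, labelled female KO, was the liver array least like the others, as described further on. In tissue RNA, fewer cells of a type and less RNA per cell cannot be told apart.

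None of the 10 clock genes passed an adjusted p of 0.05 in any comparison of KO with WT (limma, Benjamini-Hochberg over 18193 genes). The share of all genes that passed was 0.813% in female liver, 0.605% in male liver, 0.533% in female heart and 0.401% in male heart. It was 1.36% for the mean of both sexes in liver and 0.885% in heart. At an unadjusted p under 0.05 there was 1 clock gene in female liver (6.87% of all genes) and 2 for the mean of both sexes in liver (10.5% of all genes). There were 0 in male liver (8.75%), female heart (6.85%), male heart (6.58%) and the heart mean (7.81%). Of the 23 probe sets, 0 passed in any of the 6 comparisons. Of all 34945 probe sets, 0.547% passed in female liver, 0.429% in male liver, 0.349% in female heart, 0.306% in male heart, 0.933% for the liver mean and 0.604% for the heart mean. The KO and WT pools did not overlap on 2 of the 23 probe sets in female liver (9.83% of all probe sets), 5 in male liver (16.1%), 1 in female heart (12%) and 1 in male heart (10.8%). The median KO minus WT difference of the 10 genes was -0.07 in female liver, -0.03 in male liver, -0.09 in female heart and -0.03 in male heart, where the medians of all genes were -0.00, 0.01, -0.01 and 0.00. For the mean of both sexes in heart all 10 differences were negative, from -0.16 for Nr1d1 to -0.00 for Arntl, as were 50.2% of all genes. Without heart pools 4 and 10 those of Arntl (0.07) and Npas2 (0.01) were positive. The 10 genes are not independent of each other.

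**Figure D1:**
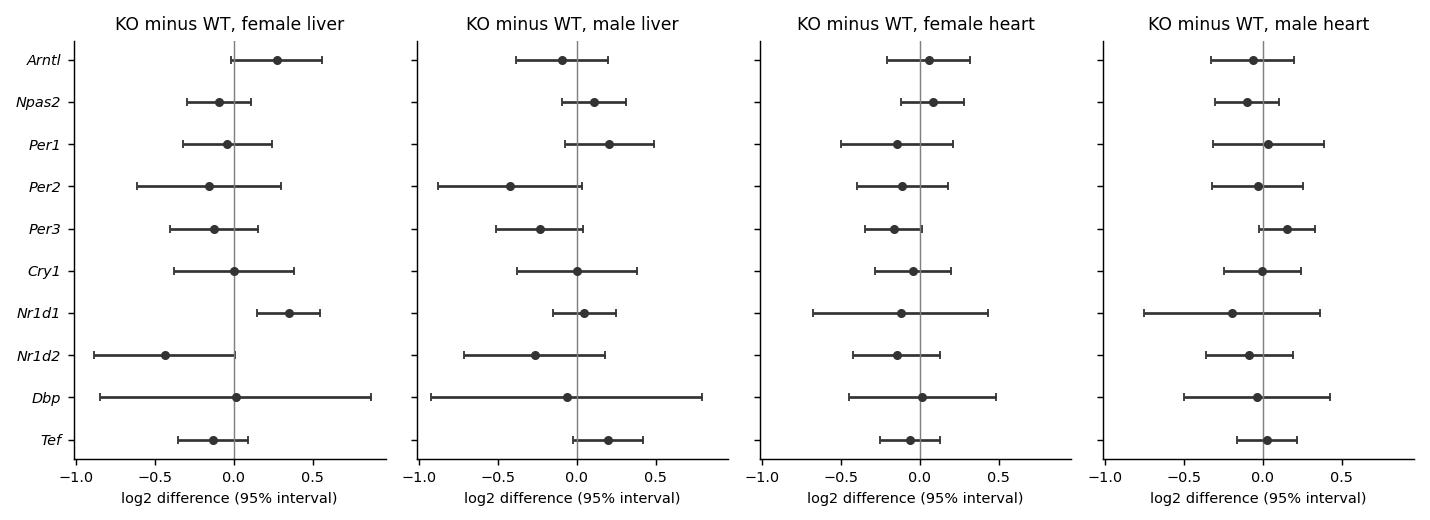
KO minus WT difference in log2 intensity (horizontal axis) with its 95% interval from limma for each of the 10 clock genes (rows), in female liver, male liver, female heart and male heart, with 3 pools a group. Only the interval of Nr1d1 in female liver (0.15 to 0.55) lies wholly to 1 side of 0, and the widest are those of Dbp in liver.

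The positive arm of the loop comes first. Arntl, the partner that CLOCK and NPAS2 both need, had log2 levels of 3.35, 3.80 and 3.42 in female KO livers, against 3.25, 3.44 and 3.07 in female WT livers. Its levels were 3.19, 3.48 and 3.24 in male KO livers, against 3.35, 3.29 and 3.55 in male WT livers. The groups overlap in both sexes. The KO minus WT difference was 0.27 in females (95% interval -0.02 to 0.56, adjusted p = 0.771) and -0.10 in males (-0.39 to 0.19, adjusted p = 0.882). For the mean of both sexes it was 0.09 (-0.12 to 0.29). The second Arntl probe set gave -0.07 in female liver and 0.10 in male liver, each of the opposite sign. In heart, Arntl was above the array median in 0 of 12 pools on the first probe set and in 6 of 12 on the second. It was thus below that median on the first (2.38 to 2.90) and close to it on the second. The KO minus WT difference in heart was 0.06 in females and -0.06 in males on the first, and 0.00 and -0.11 on the second. On the first the means were 2.85 ± 0.03 in female KO, 2.79 ± 0.08 in female WT, 2.65 ± 0.26 in male KO and 2.71 ± 0.21 in male WT (SD, n = 3 each). Npas2, which can replace CLOCK, was above the array median in 5 of 12 liver pools and 0 of 12 heart pools. Its KO minus WT difference lay between -0.10 and 0.11 in the 4 comparisons on this probe set, and at so low a signal a change may not be detectable. The second Npas2 probe set, above the array median in 0 of 12 pools of either tissue, had levels of 2.26, 2.41 and 2.37 in male KO hearts, against 2.63, 2.69 and 2.58 in male WT hearts. There the groups do not overlap, and the difference was -0.28 (unadjusted p = 0.0077, adjusted p = 0.535 over all probe sets). Without heart pools 4 and 10 the first probe set of Npas2 gave 0.06 in female and -0.03 in male heart, and that of Arntl 0.07 in each.

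Per2 belongs to the proteins that close the loop on ARNTL. Log2 levels were 4.75, 4.64 and 5.07 in male KO livers, against 5.33, 5.11 and 5.28 in male WT livers. All 3 male KO pools were below all 3 male WT pools. The difference was -0.42 (SE 0.21, 95% interval -0.88 to 0.03, adjusted p = 0.596). The other Per2 probe sets disagree in these livers. The second gave -0.34, with every KO pool below every WT pool. The third gave 0.28 (unadjusted p = 0.0189, adjusted p = 0.457 over all probe sets), with levels of 3.78, 3.69 and 3.47 in male KO, against 3.43, 3.22 and 3.43 in male WT, and every KO pool above every WT pool. No single direction therefore holds for Per2 in male liver. In female livers the levels were 5.47, 4.78 and 4.57 in KO, against 5.39, 4.74 and 5.15 in WT. These groups overlap, and KO pool 10 was the highest of all 12 liver pools. The female difference was -0.16 (-0.62 to 0.30) and that for the mean of both sexes -0.29 (-0.61 to 0.03, adjusted p = 0.553).

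Per3, a PER protein that mouse rhythms need less than the others, had log2 levels of 3.33, 3.30 and 3.10 in male KO livers, against 3.47, 3.64 and 3.34 in male WT livers. The male groups did not overlap, with the highest KO pool at 3.33 and the lowest WT pool at 3.34, and the difference was -0.24 (-0.52 to 0.04, adjusted p = 0.629). On their probe sets of highest mean, Per2 and Per3 were the only 2 clock genes whose male liver groups did not overlap, where 16.7% of all genes did not. Of the other 5 Per3 probe sets, 3 had a positive difference in male liver, and on 1 of these (0.11) every KO pool was above every WT pool. These 3 have a low signal in liver, above the array median in at most 2 of 12 pools, and in 0 of 12 for the probe set with 0.11. The first Per3 probe set was above it in 12 of 12. In female heart, Per3 levels were 4.20, 4.15 and 4.17 in KO, against 4.39, 4.29 and 4.35 in WT. Again no KO pool reached a WT pool, and Per3 was the only clock gene of which this holds in female heart, against 12.1% of all genes. The lower atrial marker median in these KO pools, given above, moved with it. The other 5 Per3 probe sets overlapped there, with differences from -0.03 to 0.09. In male heart the order was the other way: 4.49, 4.52 and 4.53 in KO, against 4.51, 4.35 and 4.22 in WT. The differences were -0.17 (-0.34 to 0.01) in female heart and 0.15 (-0.03 to 0.33) in male heart. The female minus male contrast of these differences was -0.32 (SE 0.12, unadjusted p = 0.0171, adjusted p = 0.978), so it did not pass over all genes. Without heart pools 4 and 10 the contrast was -0.34 (adjusted p = 0.991), from -0.18 in females and 0.17 in males.

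Per1, a PER gene that light and stress hormones induce, differed by -0.04 in female liver (-0.32 to 0.24) and by 0.21 in male liver (-0.07 to 0.49). Male KO pools had 3.88, 3.74 and 3.31, against 3.46, 3.32 and 3.53 in male WT pools, so 1 KO pool was below every WT pool. In heart its differences were -0.14 (female) and 0.04 (male), and -0.13 and 0.01 without pools 4 and 10. Cry1, a strong repressor of ARNTL and CLOCK, differed by -0.00 in female liver and 0.00 in male liver, with intervals of -0.38 to 0.38 in each. Female KO livers had 4.83, 4.39 and 4.05, against 4.59, 4.55 and 4.15 in female WT livers. The highest and the lowest Cry1 levels of all 12 liver pools were thus both in female KO, in pools 10 and 12. In heart Cry1 differed by -0.04 in females (-0.29 to 0.20) and by -0.00 in males (-0.25 to 0.24), and by -0.10 and -0.03 without pools 4 and 10. Per2 in heart differed by -0.11 in females and -0.03 in males, and by -0.20 and -0.15 without them.

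**Figure D2:**
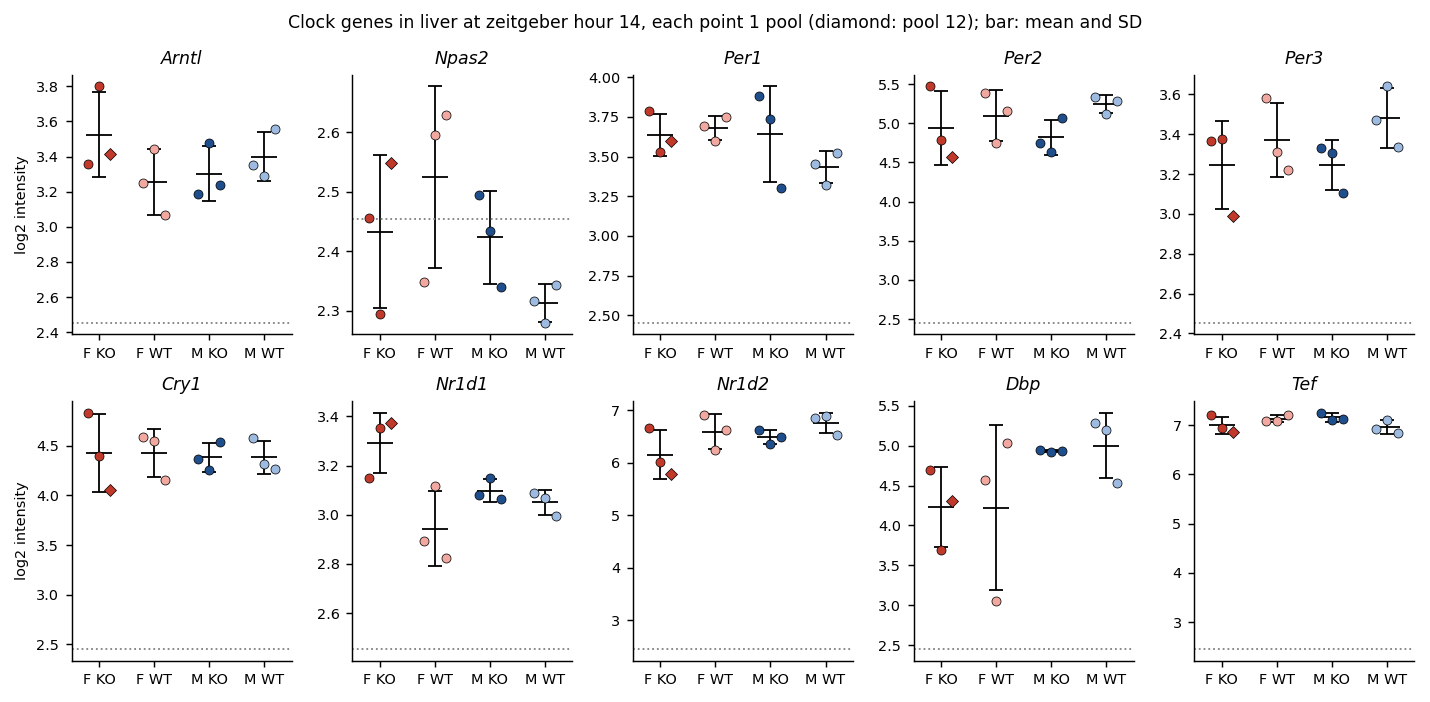
Log2 intensity (vertical axis, own scale for each gene) of the 10 clock genes in each of the 12 liver pools, by female KO, female WT, male KO and male WT. Points are pools, diamonds pool 12, bars the mean and SD (n = 3), and the dotted line the median of the arrays (2.45). Nr1d1 in female KO (3.15 to 3.37) sits above female WT (2.82 to 3.12), and Dbp in female WT spans 3.06 to 5.03.

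On the probe sets of highest mean, the REV-ERB receptors, the repressors of Arntl, gave the clock genes with an unadjusted p under 0.05 (limma) in KO against WT. Nr1d1 (REV-ERBα) had log2 levels of 3.15, 3.35 and 3.37 in female KO livers, against 2.89, 3.12 and 2.82 in female WT livers. Every female KO pool was above every female WT pool, and on the probe sets of highest mean Nr1d1 was the only clock gene whose groups did not overlap in female liver, where 10.4% of all genes did not. On 1 of the other Per3 probe sets (-0.15) every female KO liver pool was below every female WT pool. For Nr1d1 the female liver difference was 0.35 (SE 0.09, 95% interval 0.15 to 0.55), a 1.27-fold higher level. Its unadjusted p was 0.00229 and its adjusted p 0.162 (limma). In male livers the levels were 3.08, 3.15 and 3.06 in KO, against 3.09, 3.07 and 2.99 in WT, and the difference was 0.05 (-0.15 to 0.25). The contrast between female and male livers was 0.30 (SE 0.13, unadjusted p = 0.0382, adjusted p = 0.994). Nr1d1 is measured by 1 probe set, so no other probe set bears on it.

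Nr1d2 (REV-ERBβ) had lower means in the same KO livers. Levels were 6.67, 6.01 and 5.78 in female KO, against 6.90, 6.25 and 6.62 in female WT. In male livers they were 6.62, 6.36 and 6.49 in KO, against 6.84, 6.89 and 6.53 in WT. The groups overlap in both sexes. The difference was -0.44 in females (-0.88 to 0.01, adjusted p = 0.737), -0.27 in males (-0.71 to 0.18, adjusted p = 0.760) and -0.35 for their mean (-0.67 to -0.04, unadjusted p = 0.0316, adjusted p = 0.403). The second Nr1d2 probe set gave -0.17 for that mean, with levels close to the array median in liver. Without pool 10 the difference was -0.48 and its adjusted p 0.0653, the lowest of any clock gene under any alternative.

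Heart differences of the REV-ERB genes were within the spread between pools. Nr1d1 levels were 4.49, 4.33 and 4.32 in female KO hearts, against 4.90, 4.28 and 4.33 in female WT hearts. In male hearts they were 5.05, 4.51 and 4.27 in KO, against 5.48, 4.77 and 4.18 in WT. In each sex a WT pool was the highest, and the groups overlap. The differences were -0.12 (-0.68 to 0.44) and -0.20 (-0.75 to 0.36), and without heart pools 4 and 10 they were -0.18 and -0.42. Nr1d2 differed by -0.15 in female heart (-0.42 to 0.13) and -0.09 in male heart (-0.36 to 0.19), and by -0.23 and -0.15 without these pools. In male heart the groups overlap for all 10 clock genes on their probe sets of highest mean, where those of 11.4% of all genes do not.

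The output factors DBP and TEF bind D-boxes. Dbp had log2 levels of 4.70, 3.70 and 4.30 in female KO livers, against 4.57, 3.06 and 5.03 in female WT livers. Male livers gave 4.95, 4.92 and 4.94 in KO, against 5.28, 5.19 and 4.53 in WT. The 3 male KO pools are almost equal, while the 3 female WT pools span 3.06 to 5.03. The KO minus WT difference was 0.01 in females (-0.85 to 0.87) and -0.06 in males (-0.93 to 0.80), so differences of up to these bounds in either direction could not be detected. In heart Dbp differed by 0.02 in females (-0.45 to 0.48) and -0.04 in males (-0.50 to 0.43), and by -0.12 and -0.26 without pools 4 and 10. Tef differed by -0.13 in female liver (-0.36 to 0.09) and 0.20 in male liver (-0.02 to 0.42). Its levels were 7.20, 6.93 and 6.86 in female KO livers, against 7.09, 7.09 and 7.22 in female WT livers. On the first Tef probe set the contrast between the sexes was -0.33 (limma, SE 0.15, unadjusted p = 0.0394, adjusted p = 0.994), with the groups overlapping in each sex. The other Tef probe sets did not share it. Male liver means were 3.37 in KO and 3.59 in WT on the second, and 2.70 and 2.75 on the third. In female liver they were 3.57 and 3.70, and 2.76 and 2.67. Both thus had a lower mean in male KO, and neither gave a negative contrast. In heart Tef differed by at most 0.06 in size on the first probe set, and the bounds of its intervals lay between -0.25 and 0.22. Without pools 4 and 10 it differed by -0.08 in females and 0.02 in males.

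**Figure D3:**
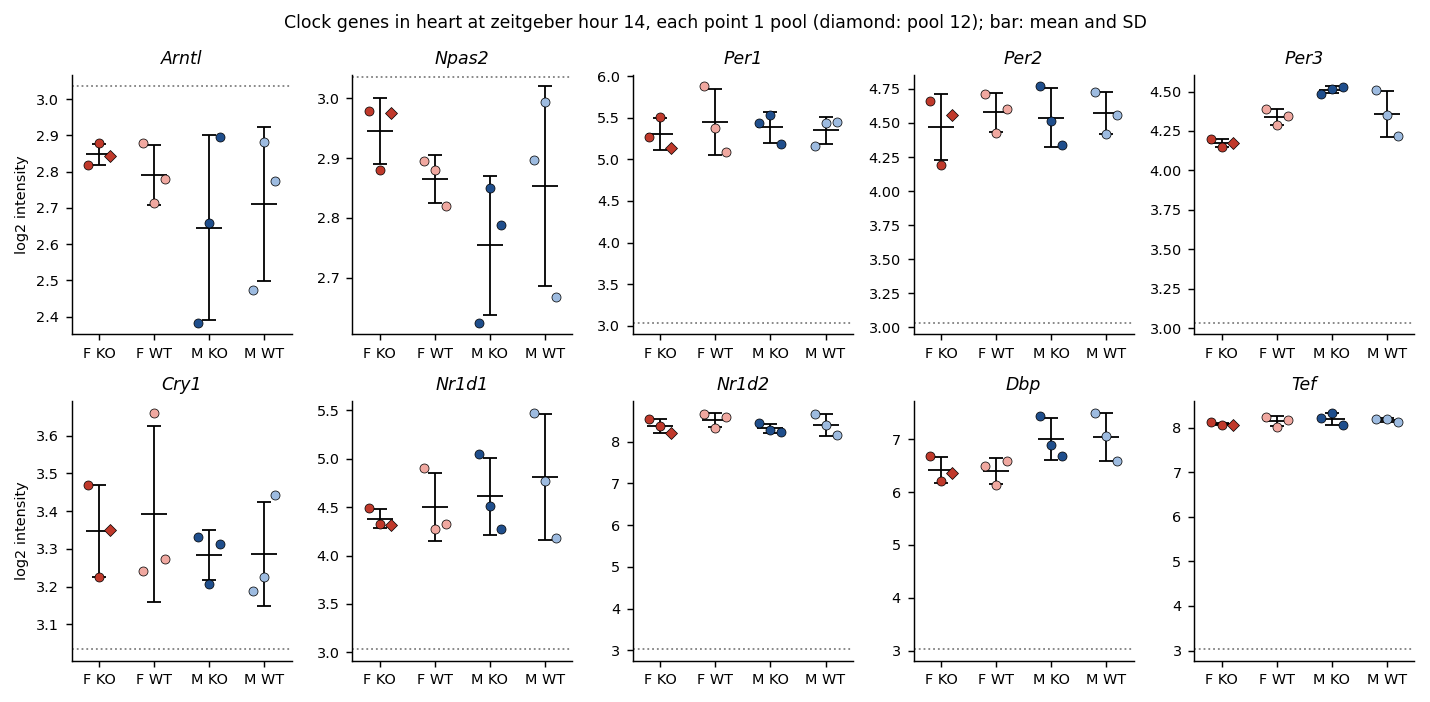
Log2 intensity (vertical axis, own scale for each gene) of the 10 clock genes in each of the 12 heart pools, by female KO, female WT, male KO and male WT. Points are pools, diamonds pool 12, bars the mean and SD (n = 3), and the dotted line the median of the arrays (3.03). Nr1d1 runs from 4.18 to 5.48 among male WT pools, and Dbp in females (6.13 to 6.69) is mostly below Dbp in males (6.58 to 7.50).

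The KO effect in liver was also set against that in heart. None of the 10 genes passed (1.37% of all genes did), and 0 had an unadjusted p under 0.05 (9.9% of all genes). The liver minus heart difference of the KO effects ran from -0.24 for Nr1d2 to 0.36 for Nr1d1 (-0.09 to 0.81). Among female against male KO effects, 0 genes passed in liver (0.066% of all genes) and 0 in heart, where no gene of the array passed. The unadjusted p was under 0.05 for Nr1d1 and Tef in liver (4.78% of all genes) and for Per3 in heart (4.51% of all genes).

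Female and male pools differed most in Dbp. The mean over both genotypes in heart was 6.41 in females and 7.02 in males, a difference of -0.61 (SE 0.15, 95% interval -0.94 to -0.28), or 1.53-fold lower in females. The unadjusted p was 0.00124 and the adjusted p 0.369, so it did not pass over all genes. Female heart pools ran from 6.13 to 6.69, against 6.58 to 7.50 in male pools, so the ranges overlap at 1 end. The second Dbp probe set gave -0.50 in heart (adjusted p = 0.293 over all probe sets), and on it all 6 female pools were below all 6 male pools, as for 0.246% of all probe sets. Without heart pools 4 and 10 the Dbp difference was -0.57 (adjusted p = 0.392). In liver it was -0.74 (SE 0.28, -1.35 to -0.13, adjusted p = 0.195), and -0.20 on the second probe set. Leaving out liver pool 8, the lowest female pool, gave -0.45. Per3 in heart differed by -0.18 between females and males (SE 0.06, adjusted p = 0.484), and by -0.19 without heart pools 4 and 10. None of the 10 genes passed between the sexes, against 4.44% of all genes in liver and 0.055% in heart. The unadjusted p was under 0.05 for 1 clock gene in liver (16.3% of all genes) and 2 in heart (7.82%).

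The spread between pools of the same group was itself unusual for some clock genes. The within-group SD of Dbp was 0.61 in liver, more than that of 99.857% of the 11848 genes above the array median, whose median SD was 0.15. In heart it was 0.35 for Dbp and 0.42 for Nr1d1, more than 99.257% and 99.585% of 11570 genes with a median of 0.14. The second Dbp probe set had a lower SD, 0.31 in liver and 0.23 in heart. Per2 and Nr1d2 in liver (0.31 each) and Per1 in heart (0.25) exceeded over 95% of genes. Some other values were low: Nr1d1 in liver had an SD of 0.10, less than most genes. Tef had 0.13 in liver and 0.09 in heart on its first probe set. The second Tef probe set had 0.32 in liver and 0.29 in heart, and the third 0.13 and 0.23. The liver level of Nr1d1 was low, with a mean of 3.10 against a median of 2.45 over the liver arrays.

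The heart pools that were high in Nr1d1 were high in some other clock genes and low in others. Pool 1 was the lowest of its group for Arntl, Per1 and Cry1, pool 4 for Arntl, Npas2 and Per3, pool 7 for Cry1 and pool 10 for Arntl. Over all heart pools, deviations from the group mean had an r with those of Nr1d1 of -0.614 for Arntl and -0.436 for Cry1, against 0.865 for Nr1d2 and 0.872 for Dbp. Pool 1 of male WT had the highest heart levels of Nr1d1 (5.48), Nr1d2 (8.67) and Dbp (7.50). Pools 1, 4, 7 and 10 were each the highest of their group of 3 for Per2, Nr1d1 and Nr1d2, and the highest in 3 of 4 groups for Per3, Dbp and Tef. The share of all genes whose highest pools were these 4 was 1.35%, and 3 of 10 clock genes were among them. These pools are the lowest numbered of their groups, a set not fixed in advance. The 3 genes also vary together, with an r of heart deviations of 0.614 for Per2 with Nr1d1 and 0.543 for Per2 with Nr1d2. The shares are therefore a description and not a test. Other heart probe sets of Per2 and Nr1d2 did not share the pattern. On the second of Nr1d2 and the third of Per2, only pool 1 of the 4 was the highest of its group. On that Nr1d2 probe set pools 4 (4.14) and 7 (3.92) were the lowest of theirs. On the second of Per2 only pools 4 and 7 were the highest. The heart sex, muscle and hepatocyte markers named above single out 2 of these pools, 4 and 10, and their part in the pattern was not tested. In liver the same numbered pools were the highest of all 4 groups for 0 of 10 clock genes and for 1.92% of all genes, though pools 1, 4, 7 and 10 were the highest in 3 of 4 groups for Per2, Cry1, Nr1d2 and Dbp.

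Pools of the same number in liver and heart were compared after subtracting each group's mean. For Nr1d2 the deviations had a Pearson r of 0.791 and a Spearman rho of 0.804 over 12 pools (permutation of pools within groups, all 1296 arrangements, p = 0.00617 for r and p = 0.0154 for rho). Liver and heart deviations had the same sign in 10 of 12 pools, and r was 0.762 without the 2 pools farthest from the liver median, 10 and 12. Dbp gave r = 0.637 (permutation p = 0.00154) and rho = 0.748 (permutation p = 0.00231), also with the same sign in 10 of 12 pools, and 0.675 without pools 8 and 9. Without pools 4 and 10, r was 0.782 for Nr1d2 and 0.723 for Dbp. Adjusted over all 18193 genes the p was 0.9 for both r values and 0.939 for both rho values, and the lowest p the design allows is 0.000772, so neither passed. The other 8 clock genes had r between -0.18 and 0.361, and the middle 80% of all genes lay between -0.477 and 0.48. The second probe sets gave r = 0.178 for Nr1d2 and 0.319 for Dbp. Pool 8 was low and pools 7 and 10 were high in both tissues for both genes.

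**Figure D4:**
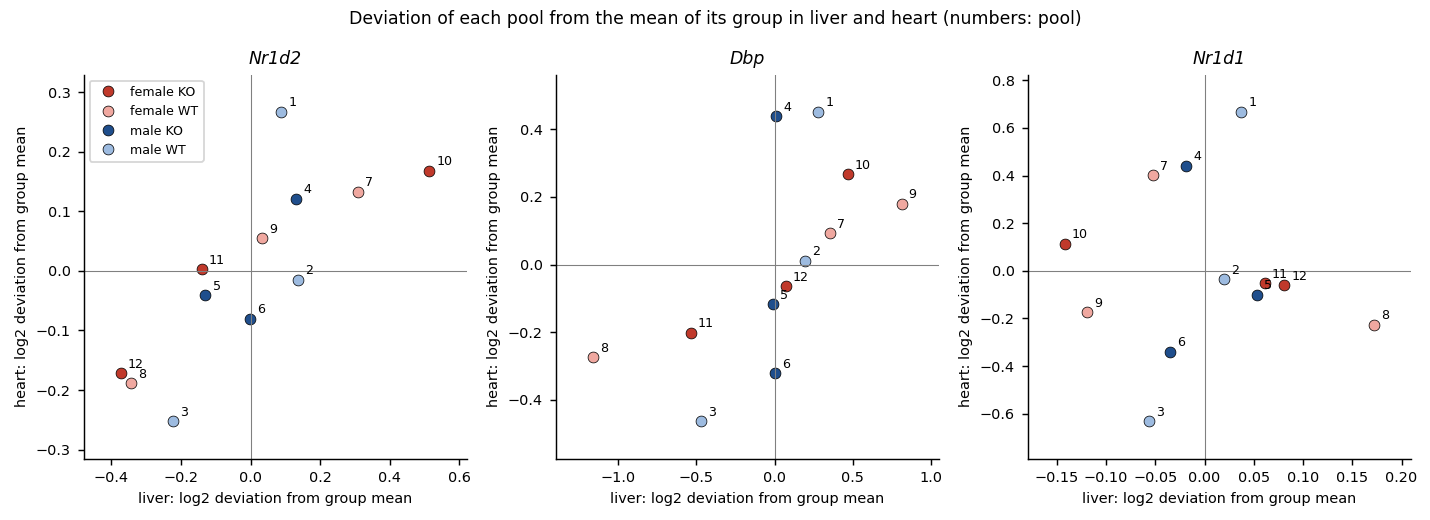
Deviation of each pool from the mean of its group of 3 in log2 intensity, liver on the horizontal and heart on the vertical axis, for Nr1d2, Dbp and Nr1d1. Numbers are pools and colours the 4 groups. Nr1d2 (r = 0.791) and Dbp (r = 0.637) rise from lower left to upper right, and Nr1d1 (r = -0.02) does not.

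Liver pool 12, of female KO, was looked at by itself. In it 5 of the 10 clock genes lay outside the range of the other 11 liver pools, against 30.5% of all genes in the same pool. In the other liver pools 0 to 3 clock genes and between 11.8% and 17.8% of all genes lay outside, so the array stood apart in many genes and not in the clock alone. Nr1d2 was at 5.78 in pool 12, against 6.01 to 6.90 in the other pools. Per2 was at 4.57, against 4.64 to 5.47. Per3 was at 2.99, against 3.10 to 3.64. Cry1 was at 4.05, against 4.15 to 4.83, so on these probe sets the 4 genes were the lowest of the 12 livers. Nr1d1 was at 3.37, above the others by 0.02 (at most 3.35). The gap to the nearest other pool was 0.23 for Nr1d2 and at most 0.11 for the rest. Arntl, Npas2, Per1, Dbp and Tef were inside the range, with Dbp at 4.30. Other probe sets of these genes differed. On the third Per2 probe set pool 12 was the highest liver, at 3.94, against at most 3.84 in the others. Pool 12 was inside the range on the second Per2 probe set (3.12), the second of Nr1d2 (2.52) and the others of Per3. On the second Arntl probe set it was the lowest, at 2.41, against at least 2.48.

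The heart array of pool 12 gave no such picture. There 0 of 10 clock genes and 16.9% of all genes lay outside the range of the other 11. On liver pool 12 the probes for both ends of Gapdh differed by 0.29, the lowest value of the 12 liver arrays (0.45 to 0.72 in the others), while the same measure for Actb was inside the range. Its median correlation with the other liver arrays over all genes was 0.982, the lowest of the 12, against 0.984 to 0.988 in the others. Markers of ventricular heart muscle, skeletal muscle and bile duct were also highest in this liver pool, as were atrial markers. The medians of the first 3 lists were 2.55, 2.94 and 3.04, where the second highest pool had 2.44, 2.76 and 2.99 and the array median was 2.45. Their part, and that of RNA quality, in the clock values was not tested. Leaving out pool 12 did not bring any clock gene past the threshold, and 203 genes passed in female liver without it, against 148 with it. The female liver difference of Nr1d2 moved from -0.44 to -0.25 without this pool, and that of Per2 from -0.16 to 0.03.

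**Figure D5:**
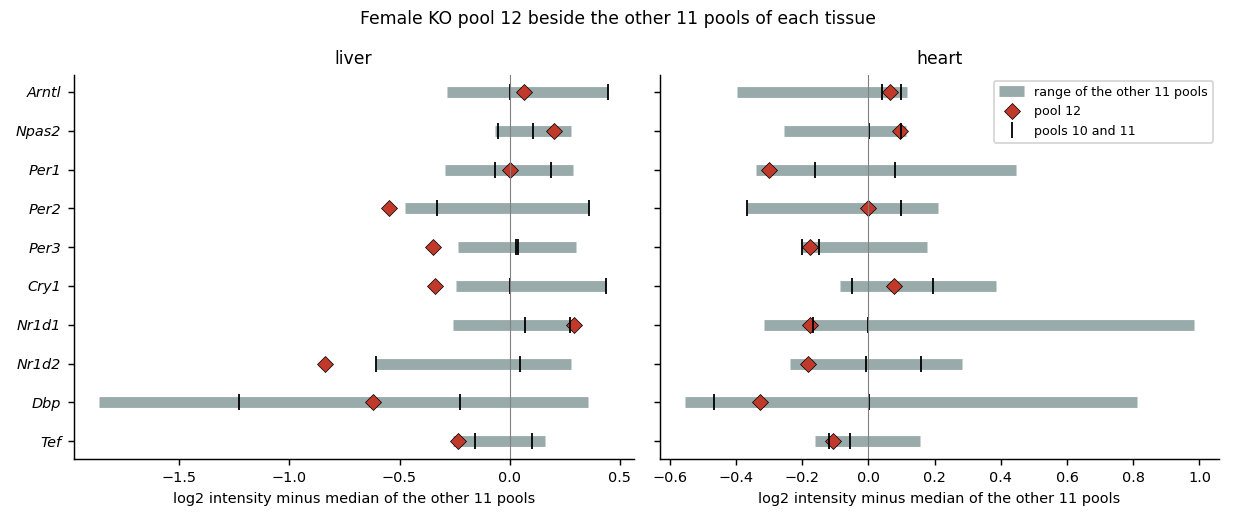
Log2 intensity minus the median of the other 11 pools (horizontal axis) for each clock gene in liver and heart. Grey bars span the other 11 pools, red diamonds are female KO pool 12 and black ticks female KO pools 10 and 11. In liver Per2, Per3, Cry1 and Nr1d2 of pool 12 lie below the bars and Nr1d1 just above, and in heart all 10 lie inside.

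Other genes around the loop were read from lists of further regulators (18 of 20 measured), outputs (19 of 20), temperature-responsive genes (11 of 12), feeding-responsive liver genes (12 of 14) and glucocorticoid targets (10 of 10). In the 4 comparisons of KO with WT within a sex, 1 gene passed, the output gene Pparg, a receptor related to PPARα, which rose in male KO livers. Pparg levels there were 3.22, 3.67 and 3.57, against 2.74, 2.82 and 2.89 in male WT livers, without overlap. The difference was 0.67 (SE 0.13, adjusted p = 0.0328), and 0.44 for the mean of both sexes (adjusted p = 0.0325). For the mean of both sexes in heart, Sgk1, a kinase induced by glucocorticoids, rose by 0.38 (adjusted p = 0.0364), and Mt1, a metal-binding protein, fell by 0.55 (adjusted p = 0.0426). Each of these lost the threshold under some alternatives, in 7 of 20 for Pparg in male liver, 7 of 19 for its mean, 11 of 20 for Sgk1 and 15 of 20 for Mt1. Without heart pools 4 and 10 neither Sgk1 (0.37, adjusted p = 0.186) nor Mt1 (-0.61, adjusted p = 0.0856) passed. Among the loop regulators, Nfil3, which competes with DBP for D-boxes, had a KO minus WT difference of 0.50 in male liver (adjusted p = 0.466). Bhlhe40, a repressor of E-boxes, had -0.26 there (adjusted p = 0.397) and -0.33 in female heart (adjusted p = 0.588). Clock itself differed by -0.08 in male liver and 0.00 in female liver.

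In liver pool 12 the same lists gave 8 of 11 temperature-responsive genes below the other 11 livers, among them Hspa1a, Hspa1b and Hsp90aa1, which are heat shock chaperones. Below were also 5 of 18 loop regulators, among them Clock, 5 of 19 outputs, 3 of 10 glucocorticoid targets and 1 of 12 feeding-responsive genes. Above were 1 loop regulator, Bhlhe41, and 2 outputs, Alas1 and Pparg. For all genes the shares in pool 12 were 16.8% below and 13.7% above.

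Genes whose levels over the 12 pools were most like those of Arntl and Nr1d1 are given as a description. In liver, Pepd (r = 0.853), Fuca1, Sulf1, Zfr2 and Ethe1 were nearest to Arntl, and Fpgs (r = 0.894), Dock2, Dlx2, Gsg1l and Serpinb1a to Nr1d1. In heart, Mest (r = 0.861), Trgv1, Cdhr2, Rbpjl and Ppm1e were nearest to Arntl, and Wdr92 (r = 0.903), Fam221b, Med11, Hacd1 and Clec5a to Nr1d1. The 12 pools share their array preparation and groups, and the best of 18193 genes always correlates highly over so few pools.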

How the data were processed

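Per the submitters' processing notes, the deposited values are log2 intensities made by RMA, whose version is not given in the sources used here. Of 45101 probe sets, 34945 are assigned to 1 gene, 932 to several, 9160 to none and 64 are controls; a gene is represented by its probe set of highest mean, and 18193 genes were tested. R 4.3.3 and limma 3.58.1 fitted the 4 groups of each tissue (moderated variance, Benjamini-Hochberg adjustment, threshold 0.05), and all 8 for tissue by genotype, giving 11 comparisons. Replicates are pools, and precision is limited by how many arrays there are. The procedure was tested on simulated data. Members, lists and tests were chosen with earlier results of these data known. Named genes were all 10 members, Ppara, list genes past the threshold in KO against WT and at most 4 others a list, the 5 genes most like Arntl and Nr1d1 per tissue, and the 5 farthest above and below in liver pool 12. No batch is given in the labels. Alternatives were normalisation, probe-set choice, filter on low levels, variance model, arrays in the fit, a block for pool number and leaving out pools in turn. The fit without heart pools 4 and 10, and the settings for the liver and heart deviations, were chosen after seeing the data.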

Additional observations from a re-analysis of the deposited data

How the results depend on the processing

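No clock gene passed the threshold under any alternative: of 2168 values under alternatives 0 were called, with a lowest adjusted p of 0.0653. The sign differed from the reported value in 170 of them, none with a reported size above 0.199. In liver pool 12 the count outside the range was 3 of 10 when quantile normalisation was repeated over the liver arrays, in place of 5; the cause was not tested. With the mean of all probe sets, r between liver and heart deviations fell to 0.239 for Nr1d2 and was 0.555 for Dbp; leaving out single pools gave 0.735 to 0.923 and 0.577 to 0.757. Of all genes, the calls moved by over 1.5 times in female liver (148; 55 with the 6 arrays compared alone, 267 with all 24 arrays, 88 without pool 11), male liver (110; 180 with all 24 arrays, 55 without pool 5), female heart (97; 59 without heart pools 4 and 10, 61 without pool 7), the liver mean (248; 437 with all 24 arrays) and sex by genotype in liver (12; 4 to 31). They did so too for female against male in liver (808; 1255 with all 24 arrays) and heart (10; 4 to 19). Same-numbered liver and heart pools did not deviate together: correlations ran from -0.196 to 0.105, with 1 of 12 above 0.1 and 4 of 12 highest with their own number. With pool number as a replicate block, 0 clock genes and 208 of all genes passed for tissue by genotype, against 250. Signals near or below the array median, as for Npas2 and heart Arntl, limit what can be detected.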

Other observations

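Among the genes outside the clock list, liver pool 12 stood farthest above the other 11 livers in Adarb1 (6.16, against at most 5.06), Pik3cd, Slurp1, Nol3 and St14. It stood farthest below them in Lpin1, a phosphatase of fat synthesis (6.34, against at least 7.69), Slc35g1, Etfbkmt, Megf9 and Foxa1.

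Between female and male livers, as means over both genotypes, 4 of 19 output genes passed (2 higher and 2 lower in females), 4 of 12 feeding-responsive genes (3 higher, 1 lower) and 4 of 10 glucocorticoid targets (4 higher), beside 4.44% of all genes. Of 18 loop regulators and 11 temperature-responsive genes 0 passed (3 and 1 at an unadjusted p under 0.05). The genes named next were chosen after their values were seen. Lcn2, an iron-binding acute phase protein, was higher in females by 3.03 (adjusted p = 1.51e-05), with all 6 female pools above all 6 male pools. Mt2, a metal-binding protein, was higher by 1.65 (adjusted p = 0.0244) and Igfbp1, a fasting-induced binding protein of insulin-like growth factors, by 1.41 (adjusted p = 0.0289), and their pools overlap. Ces2a, a carboxylesterase, was lower in females by -0.73 on the log2 scale (adjusted p = 3.75e-05), with all 6 female pools below all 6 male pools. All are limma values with Benjamini-Hochberg adjustment over 18193 genes.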
